A study of Mus musculus with 21 samples.

Results

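Transcript levels of 10 genes that hold back mitogen-activated protein (MAP) kinase signalling were followed in primary mouse cortical neurons treated with AdipoRon, a small-molecule agonist of the adiponectin receptors. The genes were taken by symbol: the dual-specificity phosphatases Dusp1, Dusp2, Dusp4, Dusp5, Dusp6 and Dusp14, the Sprouty genes Spry2 and Spry4, and the Spred genes Spred1 and Spred2. All 10 were listed in each of 4 tables, which together held 22040 genes, 19399 of them in every table. Cortical neurons came from newborn pups that were wildtype (WT) or carried a human tau cDNA with the P301S mutation under a prion promoter (Tau), and were cultured with cytosine arabinoside to limit glia. The protocols describe seeding with pre-formed fibrils for the transgenic cultures, while the results text of the study can be read as seeding of both genotypes, so whether the WT cultures were seeded could not be settled. Cultures received AdipoRon at 10 μM, as the sample tags give it, or the vehicle DMSO for 24 h. The deposited protocol text states the same figure in mM. Polyadenylated RNA was sequenced from 21 cultures. Of the Tau cultures, 5 received DMSO and 5 AdipoRon, and of the WT cultures 5 received DMSO and 6 AdipoRon. The study's reporting summary states that an animal contributed cultures to both treatments.

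MAP kinases such as ERK, JNK and p38 are switched on by phosphorylation of a threonine and a tyrosine, and dual-specificity phosphatases remove both phosphates. Dusp1, Dusp2, Dusp4 and Dusp5 encode nuclear enzymes, and Dusp6 encodes a cytoplasmic enzyme that prefers ERK. Sprouty and Spred proteins act further upstream, between receptor tyrosine kinases, Ras and Raf. Many of these genes are themselves transcribed in response to ERK activity, which makes them negative feedback regulators, and in neurons several are induced by synaptic activity.

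Each table gave 1 value per gene that is not itself a comparison: the authors' mean level on the log2 CPM scale (read counts scaled to library size) over the cultures of a pair of groups. The DMSO mean covered 10 cultures and the AdipoRon mean 11, both over Tau and WT. The Tau mean covered 10 cultures and the WT mean 11, both over DMSO and AdipoRon. The first and second pairs each set against each other cultures that are not shared. Levels per culture were not used here, so no value below carries an SD, a confidence interval or a test, the depth per culture is unknown, and an AdipoRon difference cannot be assigned to one genotype. A difference of at least 1.5-fold was counted, with the share of all genes past the same limit beside it. This limit is a size and says nothing about replicate spread.

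Among the members searched, Dusp1, Dusp5 and Spred2 held a motif in the promoter, and Dusp6 is the most abundant of the phosphatases. The promoters of these genes are shown. They are the 250 bases before the transcription start from RefSeq (GRCm38.p6), written 5′ to 3′ on the strand of the gene. Capitals mark the cyclic AMP response element (CRE, TGACGTCA), its core ACGTCA and the CArG box bound by serum response factor, on either strand.
Dusp1 promoter (chr17:26508473-26508722, minus strand): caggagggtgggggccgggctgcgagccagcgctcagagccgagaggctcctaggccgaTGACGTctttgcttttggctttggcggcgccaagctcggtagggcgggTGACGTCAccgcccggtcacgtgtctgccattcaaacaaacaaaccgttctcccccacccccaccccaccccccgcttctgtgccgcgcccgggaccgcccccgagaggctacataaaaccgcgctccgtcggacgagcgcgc
Dusp5 promoter (chr19:53528895-53529144, plus strand): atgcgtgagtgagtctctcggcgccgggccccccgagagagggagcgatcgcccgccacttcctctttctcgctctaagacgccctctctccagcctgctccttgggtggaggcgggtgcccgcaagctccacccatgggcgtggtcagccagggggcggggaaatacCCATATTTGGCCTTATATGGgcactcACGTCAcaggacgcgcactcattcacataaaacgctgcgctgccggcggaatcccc
Dusp6 promoter (chr10:99262981-99263230, plus strand): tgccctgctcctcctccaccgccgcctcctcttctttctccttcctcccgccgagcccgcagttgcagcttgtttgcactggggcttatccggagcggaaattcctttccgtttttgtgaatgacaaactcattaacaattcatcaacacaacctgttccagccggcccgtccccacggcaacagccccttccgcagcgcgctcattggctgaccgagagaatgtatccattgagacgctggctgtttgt
Spred2 promoter (chr11:19924192-19924441, plus strand): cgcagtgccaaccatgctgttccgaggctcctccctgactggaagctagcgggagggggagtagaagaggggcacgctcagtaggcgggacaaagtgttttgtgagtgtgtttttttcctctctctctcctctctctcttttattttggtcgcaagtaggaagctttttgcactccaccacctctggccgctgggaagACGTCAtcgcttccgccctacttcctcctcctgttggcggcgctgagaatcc

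RefSeq promoters were searched for 8 of the 10 members, and those of Dusp4 and Spry4 were not searched. Entries on a chromosome that was set aside were left out of the search of members. The full CRE was in the promoter of 1 of these 8 members, Dusp1, and in 1.55% of all 32851 promoters of the same length. The CRE core, which the full CRE contains, was in the promoters of 3 members (Dusp1, Dusp5 and Spred2), against 6.47% of all promoters. Dusp5 carried a pair of adjacent CArG boxes, and 1.47% of all promoters held at least 1 such box. The AP-1 motif TGANTCA was in 0 of the 8 promoters and in 6.75% of all promoters. These matches describe letters in the window and not binding.

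All 10 members had a lower mean level in the AdipoRon than in the DMSO cultures. Their differences on the log2 scale ran from -1.28 (Dusp5) to -0.28 (Spred1), with a median of -0.85, while the median over 19693 genes in both tables was 0.02. By at least 1.5-fold, 6 members were lower (Dusp1, Dusp2, Dusp4, Dusp5, Dusp6 and Spry4) and 0 were higher. Among all genes, 4.94% were lower and 2.88% were higher by this limit. Of all genes, 45.0% had any lower mean with AdipoRon. Differences had an SD of 0.373 across all genes and of 0.256 across the 9424 genes with a log2 CPM over 4 in every table, of which 2.5% were lower by at least 1.5-fold. Of the 7 members above that level, 3 were lower by this limit (Dusp4, Dusp6 and Spry4). Dusp1 was left out of these 7 only by its AdipoRon level, 3.64 log2 CPM against 4.46 with DMSO. In bulk RNA, fewer cells of a type and less RNA per cell cannot be told apart, and the levels of cell type markers are given further on.

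**Figure D1:**
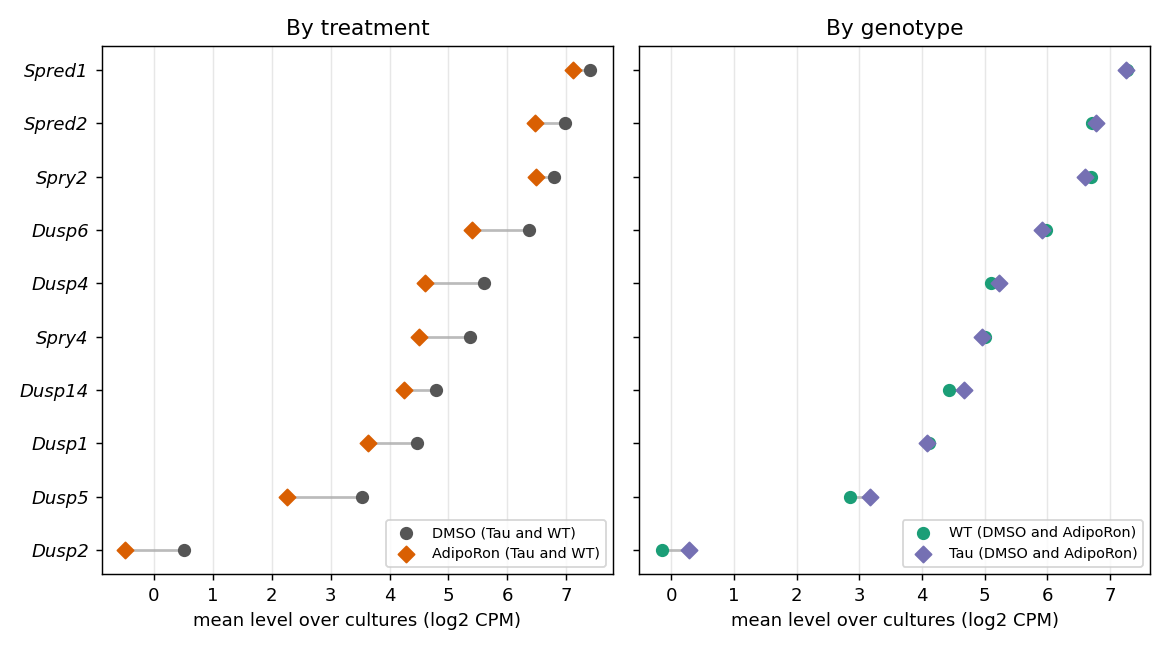
Mean level of each member in log2 CPM (x axis) over the DMSO and AdipoRon cultures (left) and over the WT and Tau cultures (right), 1 point per authors' mean, with no error because values per culture were not used. With AdipoRon every member lies to the left of its DMSO level, with differences between -1.28 and -0.28, whereas the Tau and WT points nearly coincide for 7 members and lie apart mainly for Dusp2, Dusp5 and Dusp14.

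Dusp6, the ERK-directed phosphatase of the cytoplasm, had a mean level of 6.38 log2 CPM over the DMSO cultures and 5.39 over the AdipoRon cultures. Its mean was 1.98-fold lower with AdipoRon (83.1 against 42.0 CPM). It ranked 358 from the lowest difference among the 19693 genes. Dusp6 was also the most abundant phosphatase of the list per kilobase of its canonical GENCODE transcript, at 29.3 CPM per kb with DMSO and 14.8 with AdipoRon.

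The nuclear phosphatases included the lowest difference of the list. Dusp5, which acts on ERK in the nucleus, had 3.54 log2 CPM with DMSO and 2.25 with AdipoRon, a 2.44-fold lower mean and rank 190 from the lowest difference of all genes. Dusp4 had 5.60 log2 CPM with DMSO and 4.60 with AdipoRon, 2.00-fold lower. Dusp1, the stress- and growth-factor-inducible phosphatase of ERK, JNK and p38, had 4.46 log2 CPM with DMSO and 3.64 with AdipoRon, 1.77-fold lower. Dusp2 was scarce, at 0.51 log2 CPM with DMSO and -0.50 with AdipoRon. Its mean was 2.01-fold lower with AdipoRon, which rests on 1.42 against 0.709 CPM and on a prior count that the authors do not state. Across Dusp1, Dusp2, Dusp4 and Dusp5 the means were thus 1.77-fold to 2.44-fold lower.

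Dusp14, a small dual-specificity phosphatase without the kinase-docking domain of the others, had 4.80 log2 CPM with DMSO and 4.25 with AdipoRon. Its 1.46-fold lower mean fell just short of the 1.5-fold limit, and 5.44% of all genes had a lower difference. Summed over the 6 phosphatases, the level was 194 CPM with DMSO and 103 CPM with AdipoRon, which is 46.9% less.

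The Sprouty and Spred genes were more abundant and differed less, apart from Spry4. Spry4 had 5.36 log2 CPM with DMSO and 4.49 with AdipoRon, a 1.83-fold lower mean. Spry2, the other Sprouty of the list, had 6.80 and 6.49 log2 CPM, a 1.23-fold lower mean, and 12.5% of all genes had a lower difference. For Spred2, which like Spred1 recruits the Ras inactivator neurofibromin to the membrane, the levels were 6.99 and 6.46 log2 CPM (1.44-fold lower). Spred1 had 7.40 log2 CPM with DMSO and 7.12 with AdipoRon, 1.21-fold lower. The AdipoRon differences of Spry2 and Spred1 were the smallest of the list in size. Summed over these 4 genes, the level was 448 CPM with DMSO and 340 CPM with AdipoRon, 24.1% less.

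Per kilobase of canonical transcript, the members ordered with DMSO as Spry2 (34.3 CPM per kb), Dusp6 (29.3), Spred1 (26.7), Spred2 (26.4), Dusp4 (17.6), Dusp1 (11.1), Dusp14 (9.07), Spry4 (8.66), Dusp5 (4.68) and Dusp2 (0.82). With AdipoRon, Spry2 (27.8), Spred1 (22.0) and Spred2 (18.4) stood above Dusp6 (14.8 CPM per kb). Which neighbours in this order differ beyond the spread of cultures could not be judged.

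**Figure D2:**
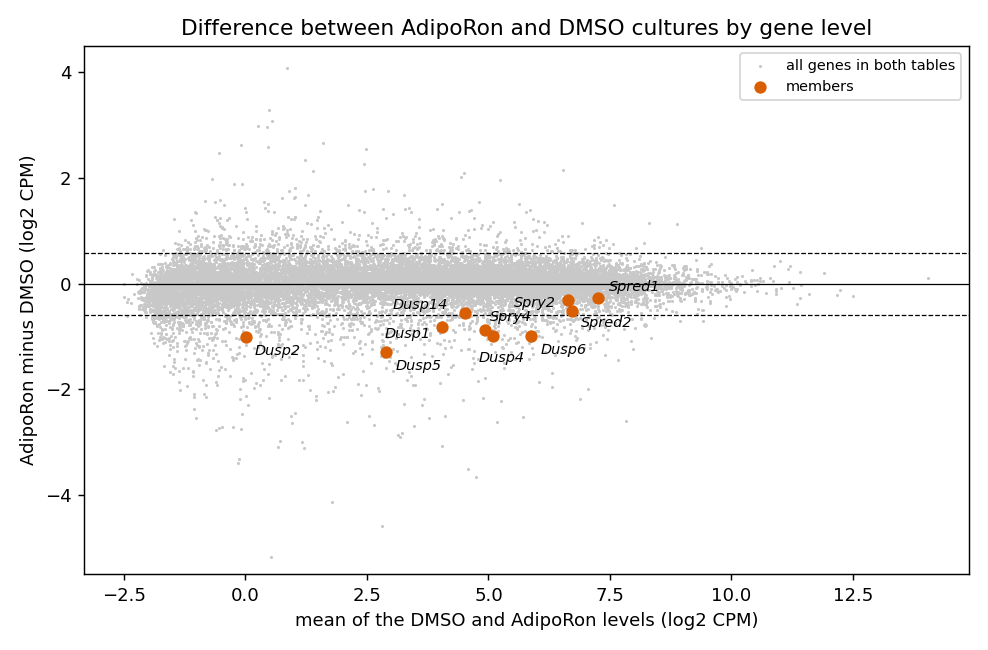
AdipoRon minus DMSO difference in log2 CPM (y axis) against the mean of both levels (x axis) for 19693 genes (grey) and the 10 members (orange), with dashed lines at 1.5-fold in either direction. All members lie below 0, and 6 lie below the lower dashed line.

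The comparison of genotypes set Tau against WT means that each pool DMSO and AdipoRon cultures. It therefore does not show the levels that go with tau pathology in the absence of the drug. Over both treatments, 0 members were lower and 0 were higher by at least 1.5-fold in Tau than in WT cultures, where 2.61% of 19890 genes were lower and 2.57% were higher. The median difference of the members was 0.02, with 5 members above and 5 below 0. AdipoRon cultures made up 6 of the 11 in the WT mean and 5 of the 10 in the Tau mean. With both treatments weighted equally in the WT level, this median was -6.2e-04. Dusp6 had 5.92 log2 CPM in Tau and 5.97 in WT cultures. Dusp4 had 5.23 and 5.10, Dusp1 had 4.08 and 4.11, and Spry4 had 4.95 and 5.00 log2 CPM in the same order. For Spry2, Spred1 and Spred2 the differences were -0.09, -0.02 and 0.06 on the log2 scale. The 3 members farthest apart were higher in Tau cultures. Dusp2 had 0.28 log2 CPM in Tau and -0.14 in WT cultures, 1.34-fold higher. Dusp5 had 3.17 and 2.85 (1.25-fold higher), and Dusp14 had 4.66 and 4.42 log2 CPM (1.18-fold higher). Under that equal weighting, the log2 differences of Dusp2, Dusp5 and Dusp14 were 0.37, 0.27 and 0.21, in place of 0.42, 0.33 and 0.24. Of all genes, 93.9% had a lower difference than Dusp2, 91.0% than Dusp5 and 86.8% than Dusp14. These shares cover genes of every level, and Dusp2 was scarce, at 1.21 CPM in Tau and 0.905 in WT cultures. Genotype differences had an SD of 0.263 across all genes and of 0.134 across the 9424 genes with a log2 CPM over 4.

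Among 34 other genes of the MAP kinase pathway, all listed in every table, the median AdipoRon difference was -0.21. By at least 1.5-fold, 4 of them were lower (Dusp7, Spry1, Spred3 and Etv1) and 1 was higher (Mapk3). Differences of the kinases, Raf, Ras and adaptor genes ran from -0.43 (Mapk11, a p38 kinase) to 0.59 (Mapk3, which encodes ERK1). Mapk3 had 6.43 log2 CPM with DMSO and 7.01 with AdipoRon, a difference of 0.59 that lies at the 1.5-fold limit. The scaffold gene Ksr1 had 6.23 log2 CPM with DMSO and 6.75 with AdipoRon, a difference of 0.51. The 3 JNK genes Mapk8, Mapk9 and Mapk10 had differences of -0.23, -0.20 and -0.34. The 4 MAP kinase kinases lay between -0.25 and 0.15.

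The 8 other phosphatase, Sprouty and Spred genes of this list of 34 each had a lower mean with AdipoRon. Spred3 had 6.26 log2 CPM with DMSO and 4.83 with AdipoRon, a difference of -1.43 that is below that of every member. Spry1 had 4.57 and 3.97 log2 CPM, and Spry3 had 3.44 and 2.98. Dusp7, a cytoplasmic ERK phosphatase related to Dusp6, had 6.27 log2 CPM with DMSO and 5.46 with AdipoRon, a difference of -0.81. Dusp10, Dusp16 and Dusp8, which encode phosphatases of JNK and p38, had differences of -0.58, -0.02 and -0.12, and Dusp3 had -0.46. Etv1, Etv4 and Etv5, ETS transcription factor genes that growth factor signalling through ERK is known to induce, had differences of -0.64, -0.47 and -0.48. With 16 genes named Dusp and a number that are not members, a set taken by symbol after values were seen, the median was -0.04, 10 had a lower and 6 a higher mean with AdipoRon, and 1 was lower (Dusp7) and 1 was higher (Dusp23) by at least 1.5-fold. Dusp9, among these 16 genes and scarce, had -0.85 log2 CPM with DMSO and -0.35 with AdipoRon, a difference of 0.50. In Tau against WT cultures, 0 of the 34 pathway genes differed by this limit, and Spry1 had the lowest difference, at -0.43. Dusp9, which is not among the 34, had a difference of -0.87 between the genotypes.

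**Figure D3:**
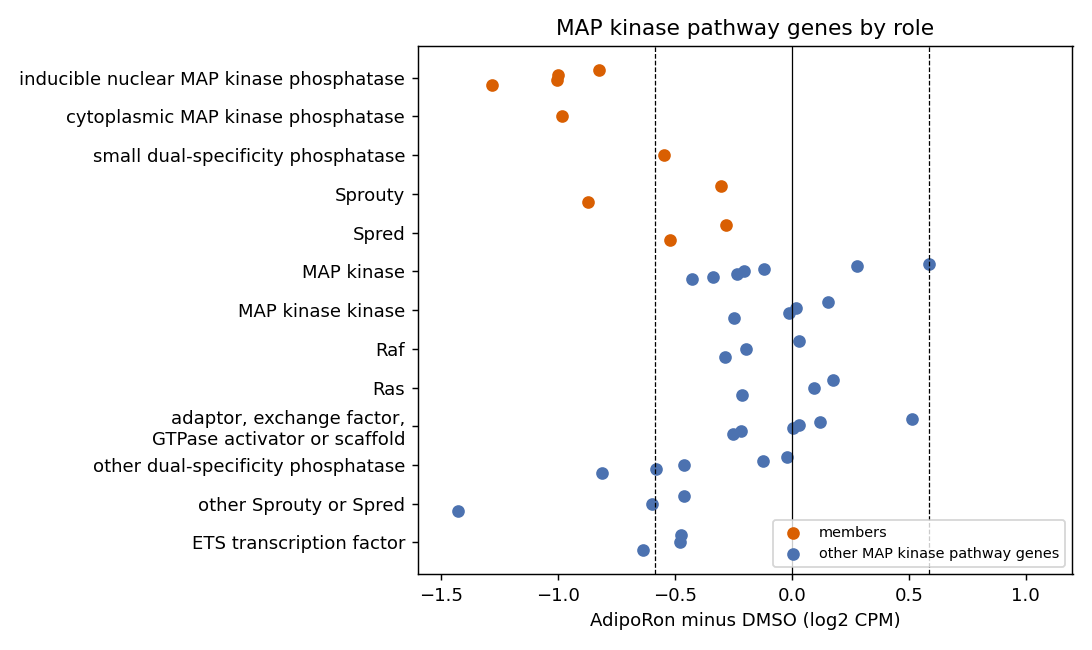
AdipoRon minus DMSO difference in log2 CPM (x axis) by role (y axis) for the 10 members (orange) and 34 other MAP kinase pathway genes (blue), with dashed lines at 1.5-fold; vertical offsets within a role only separate the points. The kinase, Raf, Ras and adaptor genes lie on both sides of 0, from -0.43 to 0.59, while the members and the plotted phosphatase, Sprouty, Spred and ETS genes lie below 0.

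Marker genes of the cells in these cultures were read in the same tables. The 6 neuronal markers (Map2, Rbfox3, Tubb3, Snap25, Syt1 and Slc17a7) had 7.72 to 10.1 log2 CPM with DMSO. The 4 astrocyte markers were as abundant, at 8.11 to 10.7, with Gfap the highest, and the 4 oligodendrocyte lineage markers had 6.40 to 8.14 log2 CPM. Microglial markers (4 of 4 listed) had 1.73 to 5.13 log2 CPM. Of 4 vascular and meningeal markers, 3 were in the tables, at -0.99 to 4.72 log2 CPM, and Cldn5 was not analysed here. Summed CPM with AdipoRon was 0.883 of that with DMSO for neuronal, 1.10 for astrocyte, 0.923 for oligodendrocyte lineage, 0.838 for microglial and 1.06 for vascular markers. Single markers ranged from 0.674 (Pdgfra) to 1.34 (Aldh1l1) of their DMSO level, and the 10 members from 0.411 (Dusp5) to 0.824 (Spred1). Between genotypes, summed microglial markers in Tau cultures were 0.511 and oligodendrocyte lineage markers 0.679 of WT, while neuronal markers were 1.13 and astrocyte markers 0.992 of WT. The part of cell makeup in the members' differences was not tested.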

How the data were processed

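Per the labels, polyadenylated RNA of 21 neuronal cultures was sequenced, and samples were grouped by genotype and treatment. According to the study's methods, the authors trimmed reads, aligned them to mm10 with STAR, quantified them with RSEM and fitted edgeR's generalized linear model; the results text names GRCm39. The deposited mean level of each gene is a log2 CPM value over the cultures of 2 groups, and the authors do not state library scaling, prior count or gene filter. Fold changes, likelihood ratios, p-values, false discovery rates and calls in the same tables are the authors' own comparisons and were not used. The planned tests needed values per culture and were not run.

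Here, mean levels of tables that share no culture were subtracted (pandas 2.3.3, Python 3.11.15). The subtraction was checked on simulated data without a genotype effect, with the median shift taken out. Tables may have been scaled separately, which the simulated data did not include. The AdipoRon level computed on the CPM scale from the other 3 tables differed from the listed one by 8.3e-04 log2 units on average (SD 0.0074 across the 9424 genes over a log2 CPM of 4). The largest difference among those genes was 0.0945. For the 10 members the mean was 0.0096 and the largest 0.0239. The 1.5-fold limit was set after values had been seen, and members and lists were chosen with earlier results of these data known. All 10 members were named, and the 34 other pathway genes were given by counts with examples by role. One gene of that list is not reported here by name. Levels per kilobase used canonical transcripts of GENCODE vM39, for length only.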

Additional observations from a re-analysis of the deposited data

How the results depend on the processing

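No paired analysis was possible because the tables hold no values per culture. For the same reason the repeats intended at the outset (another count tool, no filter on low counts, each replicate left out, separate fits) were not run. The following alternatives were chosen after seeing the data. With a limit of 2-fold, 2 members were lower with AdipoRon in place of 6 (Dusp2 and Dusp5), and with 1.2-fold all 10 were lower. Dusp4 and Dusp6 narrowly missed the 2-fold limit, at 1.998-fold and 1.978-fold lower, and Dusp2 narrowly passed it, at 2.006-fold. With 1.2-fold, 2 members were higher in Tau than in WT cultures in place of 0 (Dusp2 and Dusp5). Centring on the median of all genes, computing the AdipoRon level from the other 3 tables or weighting both genotypes equally left 6 members lower with AdipoRon, and moved the median difference of the members between -0.87 and -0.84. Under these settings the differences of single members moved by at most 0.028 log2 units and 0 changed sign. These settings rework the same means, so little movement was built in. The unchanged counts are therefore no independent support. Without Dusp2, the member under 1 log2 CPM, 5 were lower. Weighting both treatments equally in the WT level turned the median difference of the members between Tau and WT from 0.02 to -6.2e-04, with single members moving by at most 0.061 and 0 changing sign. Replicate spread and depth, which limit every value given, cannot be judged from these tables.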
